A study of Rattus norvegicus with 12 samples.

Results

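Expression of 3 genes, CIART, NR1D1 and NR1D2, was examined in rat choroid plexus of the light and dark phases, out of 32883 genes measured. The genes were chosen by identifier (ENSRNOG00000042717, ENSRNOG00000009329 and ENSRNOG00000046912) because they were much higher in the light phase in these same libraries, so their phase difference is described here and not tested. The files give no symbols for these identifiers. The symbols were proposed by comparing the phase means computed here with those printed, as whole TPM (transcripts scaled to a fixed total per library), in the study's supplementary lists of circadian rhythm genes and of the most shifted genes. With a tolerance of 0.5 TPM, or any value below 1 TPM where the list says so, the CIART row of the circadian rhythm list fitted 1 identifier among all 32883, as did the NR1D1 row and the NR1D2 row. The NR1D2 row of the second list fitted the same identifier, whereas its NR1D1 row, with a dark-phase mean just outside the tolerance, fitted 0. The fold changes printed in these lists were not used, so the NR1D1 name rests on the phase means of 1 list alone. Among genes whose symbol was already tied to an identifier, a unique match of this kind named that identifier in 45 of 45 cases with the circadian rhythm list and in 7 of 7 with the other. CIART, NR1D1 and NR1D2 are therefore names by value match.

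The tissue came from male Sprague-Dawley rats of 9 weeks, kept under alternating 12-hour periods of light and darkness. Plexus of the lateral ventricles and the fourth ventricle was taken whole from anesthetized animals, 6 in the light phase at zeitgeber time (ZT) 8, that is 8 h after the lights came on, and 6 in the dark phase at ZT 20, with 1 library per rat. Dark-phase rats were handled in darkness with an occasional red lamp. Only these time points were sampled, and both groups received ketamine and xylazine.

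NR1D1 and NR1D2, also called REV-ERB alpha and REV-ERB beta, are heme-binding nuclear receptors that repress transcription. They bind RORE elements, which they share with the activating ROR receptors, and recruit the corepressor NCOR1 with the histone deacetylase HDAC3. BMAL1, whose protein pairs with CLOCK or NPAS2 to activate genes through E-boxes, is their best known target. CIART, also called CHRONO, binds BMAL1 and represses E-box transcription, and all 3 genes are themselves E-box targets. The choroid plexus, the epithelium that secretes cerebrospinal fluid, holds a circadian clock of its own.

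Promoter sequence of each gene is shown because E-boxes and ROREs are the elements through which the clock loops act. The sequences are from RefSeq (build GRCr8, another build than the Rnor_6.0 of the expression files), matched by symbol for all 3 genes, and give the 250 bases before an annotated start, 5' to 3' on the gene's strand. Capitals mark E-boxes (CACGTG, a palindrome), the E'-box (CACGTT or its reverse complement AACGTG) and the RORE half-site (AGGTCA or TGACCT).
CIART, chr2:186112247-186112496, minus strand: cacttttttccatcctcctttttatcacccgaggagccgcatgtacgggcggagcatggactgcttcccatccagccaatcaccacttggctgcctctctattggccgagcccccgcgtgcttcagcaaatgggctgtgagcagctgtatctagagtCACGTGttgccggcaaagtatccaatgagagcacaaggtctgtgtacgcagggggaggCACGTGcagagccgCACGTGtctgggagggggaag
NR1D1, first start, chr10:84231813-84232062, minus strand: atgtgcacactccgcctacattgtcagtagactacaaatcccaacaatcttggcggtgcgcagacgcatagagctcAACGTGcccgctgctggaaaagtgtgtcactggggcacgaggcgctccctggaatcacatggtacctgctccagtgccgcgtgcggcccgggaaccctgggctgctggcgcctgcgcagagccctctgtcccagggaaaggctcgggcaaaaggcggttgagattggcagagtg
NR1D1, second start, chr10:84229455-84229704, minus strand: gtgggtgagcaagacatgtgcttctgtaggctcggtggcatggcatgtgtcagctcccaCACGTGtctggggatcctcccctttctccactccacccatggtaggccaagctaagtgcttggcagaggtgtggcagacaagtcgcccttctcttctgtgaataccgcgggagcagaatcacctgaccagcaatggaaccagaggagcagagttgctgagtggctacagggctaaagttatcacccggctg
NR1D2, chr15:9954784-9955033, plus strand: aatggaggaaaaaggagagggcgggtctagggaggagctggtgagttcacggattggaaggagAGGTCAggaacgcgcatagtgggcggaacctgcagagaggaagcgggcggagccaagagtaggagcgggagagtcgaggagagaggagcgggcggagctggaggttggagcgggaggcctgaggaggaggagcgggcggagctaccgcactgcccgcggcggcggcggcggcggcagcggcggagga

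Windows from 250 bases before to 50 bases after the start were searched on both strands for these motifs, for the D-box (TTATGTAA or TTACATAA) and for the cAMP response element (TGACGTCA). No stretch of bases can count under more than 1 of the E-box, E'-box, D-box, RORE half-site and cAMP response element. CIART held 3 E-boxes, whose first bases lay at positions -93, -35 and -21 counted from the start, 58 and 14 bases apart. NR1D1 held 1 E'-box at position -174 of its first start and 1 E-box at position -191 of its second. NR1D2 held 1 RORE half-site at position -187 and no E-box. Of all 33469 windows, which belong to 27457 genes, 6.42% had an E-box, 4.83% an E'-box, 0.893% a D-box, 16.2% a RORE half-site and 1.83% a cAMP response element. At least 3 E-boxes were found in 19 windows, or 0.0568%. Among 14 other genes of the clock lists with a window, 3 had an E-box (BHLHE40, BHLHE41 and TEF) and 2 an E'-box (CRY2 and PER2), while 1, BMAL1, had a RORE half-site, at position -15. These matches describe the letters of the windows and no binding was measured.

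**Figure D1:**
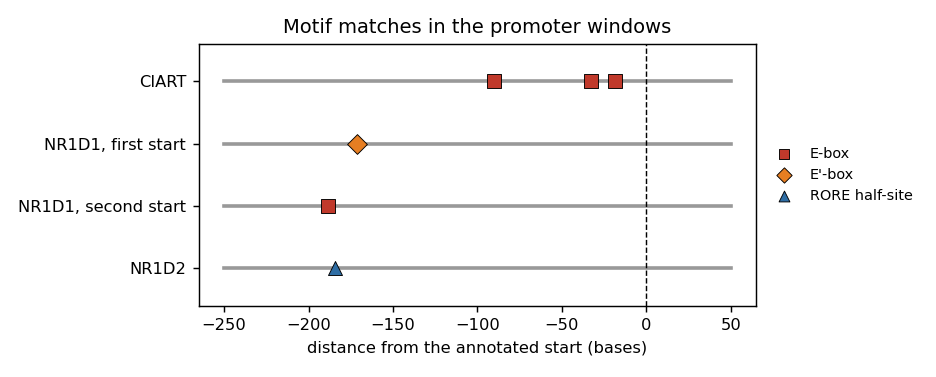
Positions of motif matches in the promoter windows of CIART, NR1D1 (2 starts) and NR1D2, with the distance from the annotated start in bases on the horizontal axis. Each grey line is 1 window, the dashed line is the start, and the marks lie at the motif centres. The 3 E-boxes of CIART lie within 93 bases of the start, and the marks of the other windows lie farther upstream.

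CIART was below 1 TPM in every dark-phase rat. In the light phase its lowest, median and highest values over the 6 rats were 7.51, 13.1 and 14.99 TPM, and at ZT 20 they were 0.14, 0.30 and 0.66 TPM. Every light-phase rat was above every dark-phase rat, and the lowest light-phase rat had 11.4 times the TPM of the highest dark-phase rat. The means were 12.0 ± 2.87 TPM (SD, n = 6) at ZT 8 and 0.352 ± 0.198 TPM (SD, n = 6) at ZT 20, a ratio of 34.1. On the scale of log2(TPM + 0.5), which understates the change of weakly expressed genes, the difference of dark minus light was -3.88 (SE 0.18). The number of reads behind the dark-phase values is not known. In whole tissue, fewer cells of a type and less RNA per cell cannot be told apart.

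NR1D1 was detected in both phases, at a far lower level at ZT 20. Its light-phase values were 35.0 TPM at the lowest, 40.4 at the median and 45.5 at the highest, against 4.58, 5.50 and 6.17 TPM at ZT 20. The phases did not overlap, and the lowest light-phase rat had 5.67 times the TPM of the highest dark-phase rat. Means of 40.1 ± 4.19 and 5.47 ± 0.525 TPM (SD, n = 6 each) gave a ratio of 7.33 and a log2 difference of -2.78 (SE 0.08).

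NR1D2 lay close to its paralog NR1D1 in both phases. In the light phase its lowest, median and highest values were 41.1, 45.8 and 48.4 TPM, and at ZT 20 they were 6.19, 7.09 and 7.73 TPM. Again all light-phase rats were above all dark-phase rats, here with 5.31 times between the nearest values. Mean expression was 45.3 ± 2.47 TPM (SD, n = 6) at ZT 8 and 7.04 ± 0.715 TPM (SD, n = 6) at ZT 20, for a ratio of 6.43 and a log2 difference of -2.62 (SE 0.06).

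**Figure D2:**
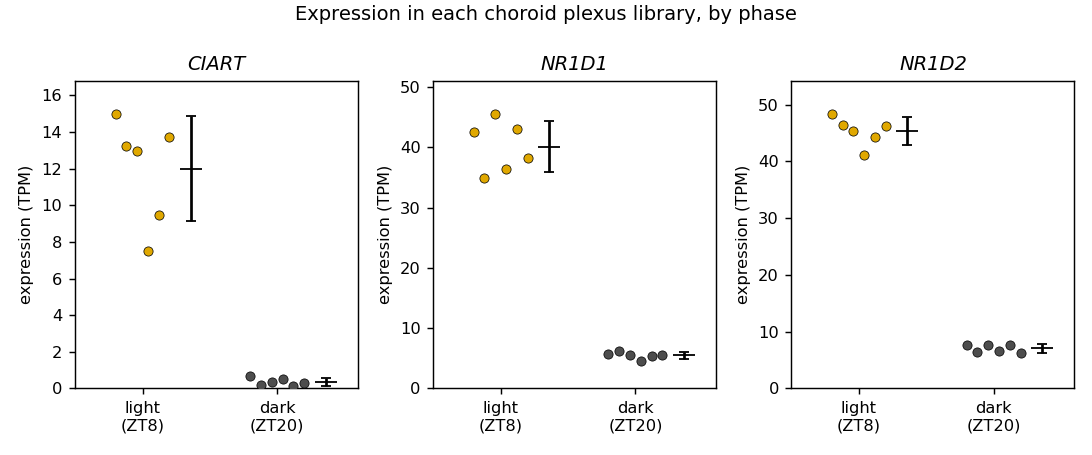
Expression of CIART, NR1D1 and NR1D2 in TPM (vertical axis, from 0) in each of the 12 libraries. Points are rats, yellow for the light phase and grey for the dark phase, and the bars beside them give the mean ± SD (n = 6). In each panel the lowest light-phase point is above the highest dark-phase point. Relative to its mean, CIART has the widest light-phase spread, from 7.51 to 14.99 TPM. In TPM, NR1D1 has the widest, from 34.97 to 45.53.

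These differences were among the largest towards the light phase. After genes whose mean was below 1 TPM had been set aside, 12513 remained, and by log2 difference towards the light phase CIART took rank 1, DBP, a D-box activator, rank 2, NR1D1 rank 4 and NR1D2 rank 6. DBP had -3.53 (SE 0.08), and with a pseudocount of 1 TPM the order turned, with DBP at -3.49 and CIART at -3.25. CIART was kept by this filter through its light-phase level, while NR1D1 and NR1D2 exceeded 1 TPM in every rat. The median log2 difference over all tested genes was -0.01 and the median size, without sign, was 0.12. As background, 8.18% of the tested genes were called higher at ZT 8 (limma, FDR below 0.05), and 3.14% had every light-phase rat above every dark-phase rat. By TPM, the light-phase mean of CIART was above that of 49.8% of the tested genes and its dark-phase mean above that of 0.0879%. This dark-phase place of CIART follows from the filter and from the choice of the genes, and is not a separate result. NR1D1 went from above 79.8% of the genes to above 28.3%, and NR1D2 from above 82.0% to above 34.8%. These falls of NR1D1 and NR1D2 also follow from the choice of the genes and are not separate results.

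**Figure D3:**
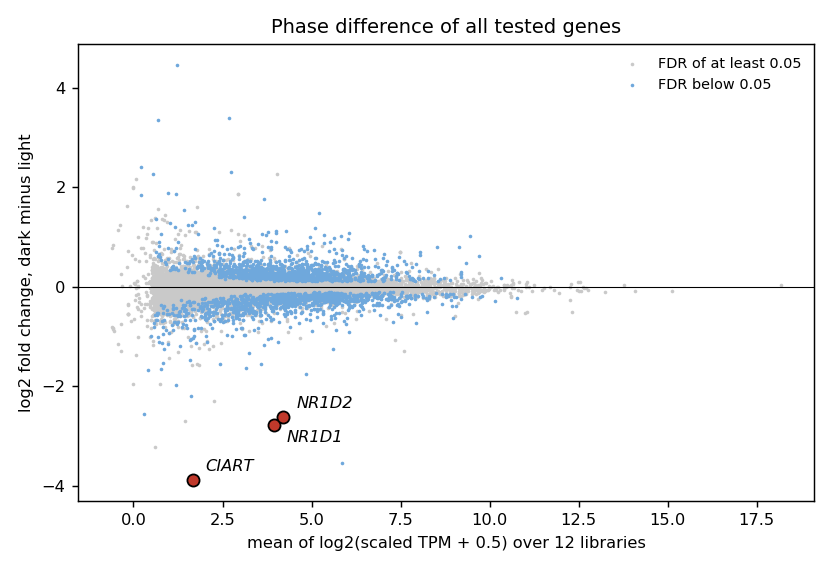
Phase difference of the 12513 tested genes. The horizontal axis is the mean of log2(scaled TPM + 0.5) over the 12 libraries, the vertical axis is the log2 difference of dark minus light, blue points passed an FDR of 0.05 and grey points did not. CIART, NR1D1 and NR1D2 (red) lie at -3.88, -2.78 and -2.62, where few other genes lie.

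The spread between rats of 1 phase was not used to choose the genes, and it differed between them. The within-phase SD of log2(TPM + 0.5) was 0.33 for CIART, 0.14 for NR1D1 and 0.10 for NR1D2, beside a median of 0.13 over the tested genes. A smaller SD than that of CIART was found for 87.4% of the tested genes, against 54.2% for NR1D1 and 30.1% for NR1D2. In TPM, the coefficient of variation of CIART was 23.9% at ZT 8 and 56.2% at ZT 20. NR1D1 had 10.4% and 9.59%, and NR1D2 5.46% and 10.2%. Light-phase rat 4, which had the lowest CIART (7.51 TPM) and the lowest light-phase NR1D2 (41.1 TPM), also had the lowest light-phase depth (0.887 relative to the mean library) and the highest quotient of total FPKM over total TPM (0.987). Without this rat the log2 difference of CIART was -3.99.

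The balance of the 2 REV-ERB genes overlapped between the phases. NR1D2 exceeded NR1D1 in 5 of 6 light-phase rats and in 6 of 6 dark-phase rats. The ratio of NR1D2 to NR1D1 in TPM, which is per transcript length, was 0.998 at the lowest, 1.13 at the median and 1.33 at the highest at ZT 8, and 1.04, 1.37 and 1.44 at ZT 20. Together the pair summed to between 77.4 and 91.0 TPM at ZT 8 and between 11.2 and 13.5 TPM at ZT 20.

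Whether the genes varied together from rat to rat was examined within each phase, over 18 relations that also took in BMAL1 and DBP. The highest coefficient was that of CIART with NR1D2 at ZT 8 (Pearson's r = 0.78, two-sided exact permutation p = 0.0278, n = 6). Spearman's rho was 0.89 (exact permutation p = 0.0333), and without the 2 rats farthest from the median of CIART r was 0.95 (n = 4). After Benjamini-Hochberg adjustment over the 18 relations the exact permutation p was 0.50 for r and 0.60 for rho, so this relation did not pass. NR1D1 and NR1D2 had r = 0.30 (exact permutation p = 0.603) at ZT 8 and r = -0.02 (exact permutation p = 0.969) at ZT 20. The lowest coefficient was that of NR1D2 with BMAL1 at ZT 20 (r = -0.76, exact permutation p = 0.075, rho = -0.54 with exact permutation p = 0.297, and r = -0.84 over 4 rats without the 2 farthest from the median of NR1D2). Its adjusted p by the exact permutation test was 0.675. Over the family, 1 of 18 relations had an unadjusted p below 0.05 and 0 an adjusted one.

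The rest of the clock was read from 6 lists of 31 genes, chosen with earlier results of these data known. Beside CIART, NR1D1 and NR1D2 the lists hold 28 genes, of which 16 could be tied to an identifier through the study's tables and were tested with limma. Of these, 9 changed at an FDR of 0.05, 7 higher at ZT 20 and 2 at ZT 8, where 17.5% of all tested genes were called. The median log2 difference was 0.14 over the 16 genes and -0.01 over all tested genes. The tables that tie symbols to identifiers were held in part, and favour genes of high expression and genes higher at ZT 20, so these shares cannot be compared directly. In each of the 9 genes called, the phases did not overlap, which held for 8.26% of all tested genes and for 5.12% with the dark phase above.

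The 3 E-box activators were all higher at ZT 20, where 9.35% of all tested genes were called in that direction. BMAL1, the obligate partner, had values of 0.91, 1.45 and 2.38 TPM (lowest, median and highest) at ZT 8 and 19.56, 20.04 and 24.07 TPM at ZT 20. Its log2 difference of 3.40 (SE 0.13, limma FDR 3.34e-09) was of the opposite sign to those of the 3 repressors. NPAS2, a partner of BMAL1, rose from a median of 4.77 TPM at ZT 8 to 13.3 TPM at ZT 20 (log2 difference 1.39, SE 0.11, FDR 3.10e-06). CLOCK, the other partner, had the smallest difference of the 3, from a median of 10.8 to 18.2 TPM (0.75, SE 0.05, FDR 6.78e-07). Relative to the summed TPM of NR1D1 and NR1D2, BMAL1 stood between 0.0108 and 0.0273 in light-phase rats and between 1.46 and 2.06 in dark-phase rats. The phase gap of this ratio follows in part from the choice of NR1D1 and NR1D2 by their phase difference. It restates the differences already given and is not a separate result.

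Among the E-box repressors, CRY1 went against CIART. CRY1, a cryptochrome that blocks CLOCK and BMAL1, lay between 5.39 and 9.16 TPM at ZT 8 and between 21.8 and 24.4 TPM at ZT 20 (log2 difference 1.76, SE 0.09, limma FDR 6.46e-08). PER2, PER3, BHLHE40 and BHLHE41 could be named only by the same value match as CIART, so no test is given for them. The BHLHE40 row in the list of most shifted genes fitted 0 identifiers, so its name rests on the circadian rhythm list. PER3, a period protein, had medians of 15.5 TPM at ZT 8 and 4.44 TPM at ZT 20, with a log2 difference of -1.64 (SE 0.12) and no overlap. BHLHE41, a repressor that occupies E-boxes, had medians of 19.7 and 6.28 TPM (-1.56, SE 0.11) and its relative BHLHE40 had 26.6 and 15.8 TPM (-0.81, SE 0.08), both without overlap. PER2 lay between 8.37 and 17.2 TPM at ZT 8 and between 6.57 and 9.17 TPM at ZT 20 (-0.64, SE 0.13), and the phases overlapped. The PER1 row of the lists fitted 3 identifiers, so PER1 is given no value.

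**Figure D4:**
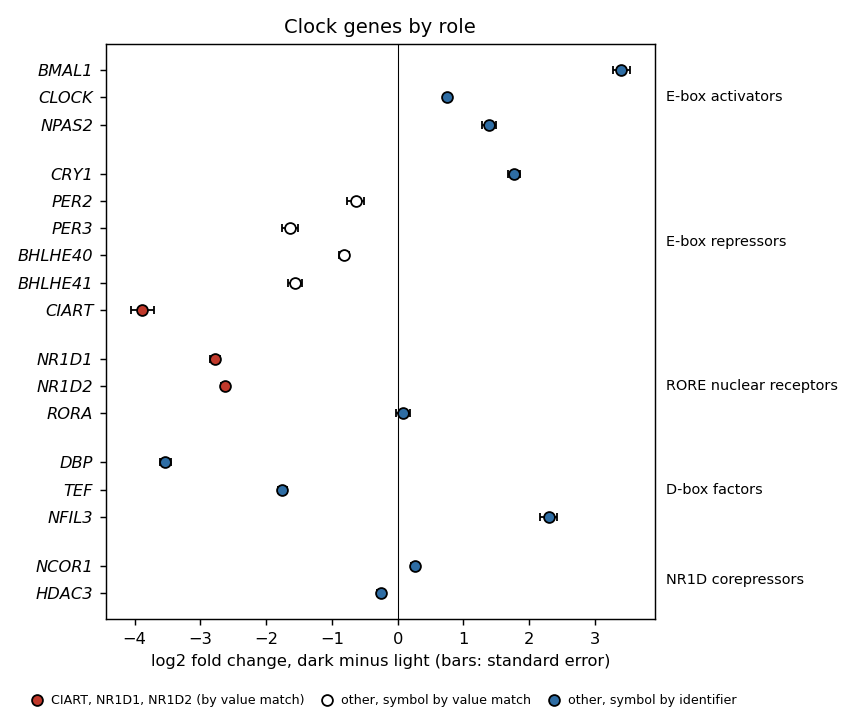
Log2 difference of dark minus light (horizontal axis, bars are SE, 6 rats a phase) of the named clock genes, grouped by role. Red points are CIART, NR1D1 and NR1D2, white points other genes named by value match and blue points genes named by identifier. The 3 red points lie between -3.88 and -2.62, opposite to BMAL1 at 3.40 and NFIL3 at 2.30.

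RORA, the activating receptor that binds the same elements as NR1D1 and NR1D2, showed no change that passed the test. Its values ran from 3.54 to 4.86 TPM at ZT 8 and from 3.13 to 5.42 TPM at ZT 20, with a log2 difference of 0.07 (SE 0.11, limma FDR 0.679). RORA was near the dark-phase level of NR1D1 in both phases, in TPM. RORB had no value tied to it here.

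Of 4 D-box factors listed, 3 were tested and all 3 were called, 2 activators higher at ZT 8 and 1 repressor higher at ZT 20. Over all tested genes, 17.5% were called, 8.18% higher at ZT 8 and 9.35% higher at ZT 20. DBP, a transcriptional activator driven by E-boxes, had medians of 189 TPM at ZT 8 and 16.4 TPM at ZT 20 (log2 difference -3.53, limma FDR 8.71e-12). TEF, a related activator, had medians of 52.4 and 15.3 TPM (-1.76, SE 0.07, FDR 3.34e-09). NFIL3, a repressor of the same elements and a known REV-ERB target, went from a median of 2.29 TPM at ZT 8 to 14.1 TPM at ZT 20 (2.30, SE 0.13, FDR 2.30e-07). Of the 8 kinases and ubiquitin pathway genes tested, 2 rose at ZT 20, where 9.35% of all tested genes did. They were CSNK1D, a kinase of PER proteins (0.19, FDR 0.00175), and BTRC, a ligase subunit that binds phosphorylated PER (0.29, FDR 0.0108). With total FPKM over total TPM as a covariate neither call held, while the log2 differences were 0.20 for CSNK1D (limma FDR 0.0700) and 0.38 for BTRC (limma FDR 0.0841). USP2, a deubiquitinase, had a log2 difference of -0.31 (FDR 0.0587), which passed without light-phase rat 4 (FDR 0.0203) and without light-phase rat 5 (FDR 0.0323), and GSK3B had 0.20 (FDR 0.0704), which passed without light-phase rat 1 (FDR 0.0254).

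Of the corepressors with which NR1D1 and NR1D2 act, NCOR1 rose and HDAC3 fell at ZT 20. NCOR1, a corepressor scaffold, had a median of 11.2 TPM at ZT 8 and 13.8 TPM at ZT 20 (log2 difference 0.26, limma FDR 0.00324), with no overlap. HDAC3, the deacetylase, had 46.0 and 38.0 TPM (-0.26, FDR 0.00745), with overlapping phases. As background, 17.5% of all tested genes were called. Of 12 genes of heme metabolism, which makes and breaks down the ligand of NR1D1 and NR1D2, only UROD, an enzyme of heme synthesis, was tied to an identifier (-0.19, FDR 0.00172).

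Known REV-ERB targets were mostly outside the genes that could be named. Of 17 listed, 6 were tested and 5 were higher at ZT 20, where 9.35% of all tested genes were called in that direction. The 5 were BMAL1, CLOCK, NPAS2, CRY1 and NFIL3, which also stand in the clock lists, so they are the same observations. LPL, a lipase gene reported as a REV-ERB target, had a log2 difference of -0.0042 (limma FDR 0.978). The median of the 6 genes was 1.58. Of 14 E-box targets other than the 3 genes themselves, 4 were tested. DBP and TEF were higher at ZT 8, CRY1 was higher at ZT 20 and USP2 was not called. Over all tested genes, 8.18% were called higher at ZT 8 and 9.35% higher at ZT 20.

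THRA, the thyroid hormone receptor gene, overlaps NR1D1 on the opposite strand in the RefSeq annotation, and moved the other way. It had 42.0, 44.6 and 48.7 TPM (lowest, median and highest) at ZT 8 and 61.5, 64.8 and 72.3 TPM at ZT 20. The phases did not overlap. The log2 difference was 0.53 (SE 0.05, limma FDR 9.53e-06), which is 46.4% more TPM at ZT 20. The library kit is named without a strand option and the strand setting of the counting is not given in the sources used here. Reads of the shared stretch therefore cannot be told apart, and both NR1D1 and THRA are uncertain to that extent. In the same annotation MED24, a Mediator subunit gene, is the nearest neighbour of NR1D1 on the lower side, and it was also higher at ZT 20 (0.32, FDR 0.00243). MRPS21, next to CIART, had -0.03 (FDR 0.761) and RPL15, next to NR1D2, had -0.05 (FDR 0.660). Among 47 nuclear receptor genes listed beside NR1D1 and NR1D2, 8 were tested and 3 rose at ZT 20, where 9.35% of all genes did: THRA, RARG (0.18, FDR 0.0405) and ESRRA (0.20, FDR 0.0350).

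**Figure D5:**
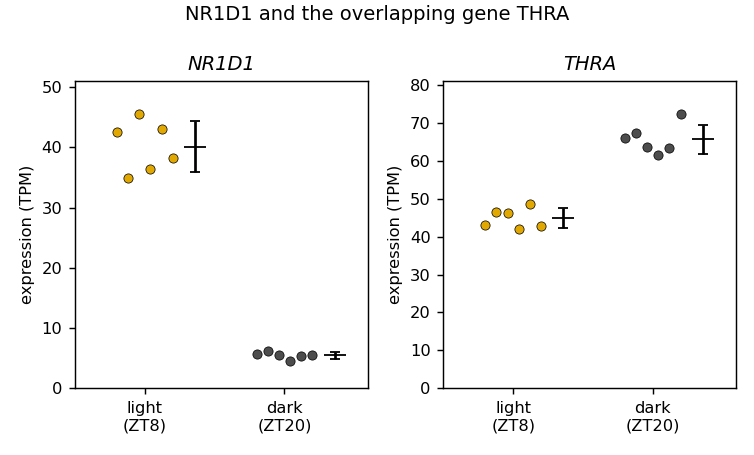
Expression of NR1D1 and of the overlapping gene THRA in TPM (vertical axes, from 0) in the 12 libraries, with points for rats and bars for the mean ± SD (n = 6). NR1D1 falls from 40.1 to 5.47 TPM between the light-phase and dark-phase means while THRA goes from 44.8 to 65.7 TPM, with no overlap in either panel.

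The genes with the most similar course over the 12 libraries were sought among all 12513 tested genes by the root mean square difference of their log2 values, each centred on its own mean. NR1D1 and NR1D2 were closer to each other (0.17) than to any other tested gene. CIART lay 0.65 from NR1D1 and 0.69 from NR1D2, and was closest to DBP (0.37), then TEF (1.10) and PER3 (1.18). NR1D1 was closest to DBP (0.40), TEF (0.55) and BHLHE41 (0.63), and NR1D2 to TEF (0.45), DBP (0.48) and PER3 (0.54). Since the phase difference dominates this measure, it mainly lists genes with a like shift to the light phase.

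The libraries differed in depth and in makeup. Absolute read numbers are not known. Relative depth, estimated from the FPKM steps of 765 short and weak genes, was 0.887 to 1.37 at ZT 8 (median 0.968) and 0.882 to 1.08 at ZT 20 (median 0.922). Total FPKM divided by total TPM was 0.953 to 0.987 at ZT 8 and 0.934 to 0.960 at ZT 20. With that ratio as a covariate only 346 genes were called in place of 2194, while the log2 differences were -4.21 for CIART, -2.75 for NR1D1 and -2.66 for NR1D2. All 10 choroid plexus epithelium markers were found, led by TTR. Their summed TPM was 260060 to 310880 at ZT 8 and 293350 to 316650 at ZT 20. TTR alone averaged 294110 TPM at ZT 8 and 303060 TPM at ZT 20, so the sum says little of the other markers. Of the 10 markers 6 were called, 4 higher at ZT 20 (PRLR, KL, OTX2 and CLIC6) and 2 at ZT 8 (AQP1 and SLC4A5). Over all tested genes 17.5% were called, 9.35% higher at ZT 20 and 8.18% at ZT 8. Of other cell types, markers tied to an identifier were DCN and PDGFRA of fibroblasts (135 to 216 TPM summed at ZT 8 and 145 to 228 at ZT 20), RGS5 of mural cells (125 to 325 and 136 to 212) and HBB of red blood cells (1406 to 5535 and 839 to 2190). None of these 4 was called, and their part in the results was not tested. Markers of neurons, astrocytes, endothelium, macrophages and pinealocytes were not tied to an identifier here.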

How the data were processed

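RNA-seq of choroid plexus was used, from 12 rats in 2 phases of 6 each. Per the authors, reads were mapped to Rnor_6.0 with STAR 2.7.9a. The authors made the deposited TPM and the deposited FPKM values with RSEM 1.3.3, and tested counts with DESeq2, which the submitters' processing notes give as version 3.16. TPM and FPKM are not counts, so limma was the test. The FPKM values served for relative depth and as an alternative.

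TPM was divided by a trimmed mean of ratios (30% of ratios and 5% of levels trimmed at each end) and taken as log2(TPM + 0.5). Genes averaging below 1 TPM were left out, and the other 12513 were tested for phase with limma 3.58.1 in R 4.3.3, with a variance trend, p-values adjusted after Benjamini and Hochberg and an FDR limit of 0.05. Log2 differences are dark minus light. Figures and exact tests used Python 3.11.15, scipy 1.17.1, numpy 2.4.6, matplotlib 3.10.9 and pandas 2.3.3. The estimators were tested on simulated data.

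The genes and lists were chosen with earlier results of these data known. Of all genes, 3700 have a symbol tied to their identifier in the study's tables, parts of which were held. Named are the 3 genes, tested list genes (in lists of over 12 genes, those called), genomic neighbours and, for each of the 3 genes, the 3 tested genes of most similar course. Some listed genes are not reported here. LPL, which was not called, was named after its value was seen. Rats of the same number in both phases were not pairs: the correlations of their deviations were between -0.107 and 0.0468. Alternatives were other pseudocounts, filters, scalings, sample weights, FPKM, a replicate block, a covariate and leaving out each rat. Each library counts as 1 rat.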

Additional observations from a re-analysis of the deposited data

Results flagged for a closer look

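Of 46 sets of 6 values examined, 4 held a value far from its neighbours by Dixon's test, where chance gives about 1 in 20, or 2.3. No value of CIART, NR1D1 or NR1D2 was among them. BMAL1, a REV-ERB target, had 24.07 TPM in dark-phase rat 6, with 20.73 TPM in the next rat. Light-phase rat 2 gave the other 3: CRY1 at 9.16 TPM above a next value of 6.62 TPM, NFIL3 at 4.26 TPM above 2.66 TPM, and BTRC at 18.69 TPM below 21.76 TPM. In that rat CIART was 13.26 TPM, NR1D2 46.39 TPM and NR1D1 34.97 TPM, the last being the lowest NR1D1 of the light phase.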

How the results depend on the processing

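The direction of CIART, NR1D1 and NR1D2 was the same with the other pseudocounts, the other scalings, FPKM, the replicate block, the covariate and each rat left out. For these 3 genes the values with the other filters and with sample weights are not reported here. CIART, with its low dark-phase values, depended on the pseudocount, with log2 differences of -4.83 at 0.1 TPM and -3.25 at 1 TPM. NR1D1 stayed between -2.87 and -2.68 and NR1D2 between -2.69 and -2.55. Leaving out 1 rat at a time gave -3.99 to -3.80 for CIART, -2.84 to -2.74 for NR1D1 and -2.65 to -2.59 for NR1D2. It gave 1679 to 2257 genes called in all, 772 to 1089 of them higher at ZT 8 and 905 to 1168 at ZT 20, and 9 to 10 in the clock lists. With total FPKM over total TPM as a covariate, 346 genes were called, 121 higher at ZT 8 and 225 at ZT 20, and the cause was not tested. That fit left 8 genes called in the clock lists, with CSNK1D (FDR 0.0700) and BTRC (FDR 0.0841) lost and USP2 gained (FDR 0.0420). The replicate block gave -3.88, -2.78 and -2.62 for CIART, NR1D1 and NR1D2, 1573 genes called and 10 in the clock lists, where USP2 was gained (FDR 0.0443), and 0 of 6 rats correlated best with the rat of their own number. USP2 also passed with a filter of 5 TPM (FDR 0.0494). Over the clock genes and 22 alternatives, 343 of 351 values kept their call and direction, 2 lost the call, 6 gained it and 0 reversed. Within-phase correlations were computed in the main setting, with TPM not scaled and with a pseudocount of 0.1 TPM. In each of these, 0 had an adjusted p below 0.05 by the exact permutation test. With TPM not scaled, CIART and NR1D2 at ZT 8 had r = 0.96, against 0.78 in the main setting. The exact permutation p without scaling was 0.00556, and 0.1 after adjustment. Depth in reads is unknown, which limits what can be said of CIART at below 1 TPM at ZT 20.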
